A study of Mus musculus with 4 samples.

Results

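The genes described here are 10 genes by which stem and progenitor spermatogonia are recognised: *Zbtb16* (which encodes PLZF), *Gfra1*, *Id4*, *Etv5*, *Nanos2*, *Nanos3*, *Lin28a*, *Sall4*, *Pou5f1* and *Neurog3*. They were chosen by name from the 55820 loci of the count table, with earlier results of these data known. No rule on their values was used, and all 10 were found in the count table, once each. RNA was sequenced from whole testes of male C57BL/6J mice at postnatal day 10 (P10), with 2 libraries from control mice and 2 from Mps1sKO mice. In Mps1sKO mice the floxed *Mps1* gene, which encodes a kinase of the spindle checkpoint, is deleted in germ cells by a Cre recombinase under the *Stra8* promoter, which is active from P3 in early spermatogonia and increases until P7. The labels call the other group control and do not say whether it carried floxed alleles or Cre, nor whether 1 library came from 1 mouse. The comparison asks how the RNA of these 10 genes stood in Mps1sKO testes shortly after the deletion.

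Undifferentiated spermatogonia are the mitotic germ cells that maintain spermatogenesis. A small stem cell pool self-renews under GDNF, a growth factor from Sertoli and other somatic cells that signals through the receptor pair GFRA1 and RET and induces genes such as *Etv5*, while retinoic acid later turns progenitors into differentiating, KIT-positive spermatogonia. PLZF, SALL4 and LIN28A are found across most of the undifferentiated population, NANOS2, ID4 and GFRA1 are concentrated in its most primitive cells, and NEUROG3 marks progenitors that are about to differentiate.

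The libraries held 23311689 to 28607746 counts, so 3 counts, the most that a count of 0 leaves possible by counting error alone, correspond to 0.104 to 0.129 CPM. Levels are CPM, that is counts relative to the library total after scaling by edgeR's TMM method, and each of the 20561 loci that passed edgeR's filter on low counts was tested with its two-sided quasi-likelihood test, with p adjusted over all of them by the Benjamini-Hochberg method. All 10 genes passed the filter. The targeted gene, listed by its other symbol *Ttk*, was at 41.7% of its control level (log2 fold change −1.26, adjusted p = 0.0461 from edgeR). With 2 libraries against 2, an exact permutation test cannot give a p below 0.333. Mitochondrial genes took 2.52% to 3.14% of the counts.

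Transcripts of all 10 genes were detected in every library, and their levels per gene length covered a wide range. Values here are the deposited FPKM, which allow genes of different length to be compared. *Lin28a*, whose product is an RNA-binding protein that blocks maturation of let-7 microRNAs, was the highest, with 24.4 and 23.4 FPKM in control against 20.1 and 17.7 FPKM in Mps1sKO testes. Next came *Zbtb16*, which encodes a transcriptional repressor required for stem cell maintenance, with 21.2 and 19.6 FPKM in control and 17.3 and 14.5 FPKM in Mps1sKO testes. *Nanos2*, which encodes an RNA-binding protein that keeps germ cells undifferentiated, was the lowest, with 0.353 and 0.573 FPKM in control and 0.769 and 0.334 FPKM in Mps1sKO testes, so the control means of the highest and the lowest gene differed by 51.6-fold. In control testes *Sall4* (10.2 FPKM on average), *Etv5* (9.02), *Nanos3* (7.63), *Neurog3* (4.43), *Gfra1* (3.85), *Id4* (3.40) and *Pou5f1* (3.19) lay between these in that order. The control values of *Sall4* and *Etv5* overlapped, although *Sall4* was the higher in each control library (11.3 against 9.82 and 9.12 against 8.21 FPKM). Those of *Id4* and *Pou5f1* overlapped too, and their order changed between the 2 control libraries. The order was the same for all 10 genes when TMM-scaled counts were divided by gene length. That measure differs from FPKM only in how each library is scaled, so it is not a separate check of the order. Both measures use the full length of *Nanos2*, although 49.0% of its exon bases are shared with an antisense transcript, as described below.

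**Figure D1:**
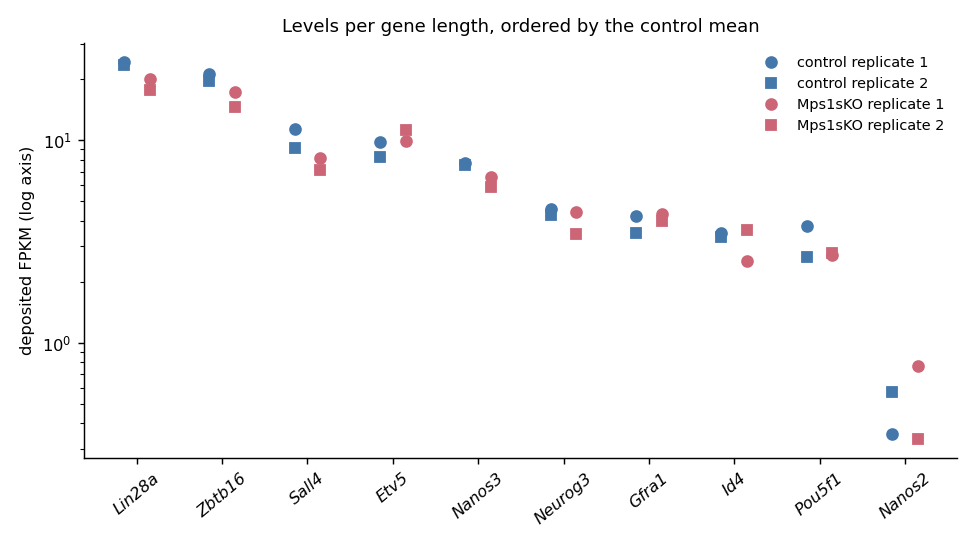
Deposited FPKM (log axis) of the 10 genes in each library, ordered by the control mean; blue marks control and red Mps1sKO, circles replicate 1 and squares replicate 2. *Lin28a* and *Zbtb16* stand highest, with control means of 23.9 and 20.4 FPKM, and *Nanos2* lowest, with 0.463 FPKM.

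The 10 genes lie on 10 different chromosomes, and all are annotated as protein coding. The transcription factor column of the table assigns *Zbtb16* to the ZBTB family, *Sall4* to C2H2 zinc fingers, *Etv5* to ETS, *Pou5f1* to Pou, *Id4* and *Neurog3* to bHLH and *Lin28a* to cold shock domain proteins, while *Gfra1*, *Nanos2* and *Nanos3* have no entry. For 8 of the 10 genes, RefSeq promoter windows on GRCm38.p6 were at hand, from 250 bases before to 50 bases after a transcription start; *Zbtb16* and *Sall4* had none. CpG dinucleotides numbered 39 in the window of *Id4*, 37 in the upstream window of *Etv5*, 19 in the other window of *Etv5* and in that of *Neurog3*, 12 in *Gfra1*, 11 and 6 in those of *Pou5f1*, 10 in *Lin28a*, 3 in *Nanos3* and 0 in *Nanos2*, against a median of 7 over the 32851 windows of all genes. The windows below are shown for *Lin28a* and *Nanos3*, which were lower in both Mps1sKO libraries than in both control libraries. Those of *Etv5* and *Gfra1*, the genes tied to GDNF, which were not, are set beside them. The 95% intervals of the log2 fold change of *Nanos3*, *Etv5* and *Gfra1* spanned both signs. Whether promoter sequence bears on the fold changes was not tested. The windows are at chr4:134018767-134019066 for *Lin28a*, chr8:84176503-84176802 for *Nanos3*, chr16:22439521-22439820 for *Etv5* and chr19:58455349-58455648 for *Gfra1*, all on the minus strand and written 5′ to 3′. Capitals mark the GC box GGGCGG and the CCAAT box CCAAT on either strand, and no match overlapped another.
Lin28a: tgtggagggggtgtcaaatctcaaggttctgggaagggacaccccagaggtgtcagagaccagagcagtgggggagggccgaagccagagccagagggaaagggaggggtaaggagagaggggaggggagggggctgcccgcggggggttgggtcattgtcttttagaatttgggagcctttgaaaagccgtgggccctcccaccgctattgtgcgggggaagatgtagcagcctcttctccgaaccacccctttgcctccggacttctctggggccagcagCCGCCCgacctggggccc
Nanos3: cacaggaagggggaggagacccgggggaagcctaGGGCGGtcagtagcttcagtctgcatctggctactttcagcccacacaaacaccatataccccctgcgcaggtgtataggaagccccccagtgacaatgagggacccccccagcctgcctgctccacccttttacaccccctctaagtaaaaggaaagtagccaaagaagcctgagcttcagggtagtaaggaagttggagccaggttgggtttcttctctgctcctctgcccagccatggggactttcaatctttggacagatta
Etv5: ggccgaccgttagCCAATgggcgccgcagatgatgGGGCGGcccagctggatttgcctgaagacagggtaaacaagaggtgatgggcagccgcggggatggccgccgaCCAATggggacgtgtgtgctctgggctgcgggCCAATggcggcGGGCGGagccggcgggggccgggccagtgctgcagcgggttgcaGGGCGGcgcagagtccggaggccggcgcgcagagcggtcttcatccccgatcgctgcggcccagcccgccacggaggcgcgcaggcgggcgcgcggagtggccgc
Gfra1: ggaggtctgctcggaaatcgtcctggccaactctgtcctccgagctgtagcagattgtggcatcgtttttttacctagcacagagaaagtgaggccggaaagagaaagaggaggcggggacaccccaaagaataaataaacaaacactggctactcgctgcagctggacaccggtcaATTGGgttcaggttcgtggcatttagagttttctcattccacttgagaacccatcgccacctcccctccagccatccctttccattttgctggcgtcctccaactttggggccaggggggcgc
The upstream *Etv5* window, which is the one shown, held 3 GC boxes and 3 CCAAT boxes, its other window held 0 and 1, those of *Lin28a* and *Nanos3* held 1 GC box each, and that of *Gfra1* held 1 CCAAT box. Over all windows, 35.7% held a GC box and 37.4% a CCAAT box. The ETS core CCGGAAG, the E-box CACGTG and the octamer ATGCAAAT, searched on both strands, were in none of the windows of the 8 genes and in 8.86%, 7.15% and 1.74% of all windows. The start used for each window shown lies inside the span that the count table gives for its gene. That of *Nanos3* lies farthest inside, in a span from 84173731 to 84185217 on chromosome 8.

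At an adjusted p below 0.05 edgeR called none of the 10 genes, where 6 of the 20561 loci tested (0.0292%) did, all of them lower. Of the 15436 loci to which DESeq2 gave an adjusted p, it called 30 lower (0.194%) and 7 higher (0.0453%) at that threshold. None of the 10 genes was among these, and *Nanos2* had no adjusted p from DESeq2. In 7 of the 10 genes the log2 fold change was below 0, and in *Gfra1*, *Etv5* and *Nanos2* it was above 0, while 49.9% of all loci were below 0. The median was −0.20, and that of all loci tested was 0.000268. For 4 genes the levels in both Mps1sKO libraries were below those in both control libraries (*Zbtb16*, *Lin28a*, *Sall4* and *Nanos3*), and 21.1% of all loci did so. For 1 gene, *Etv5*, both lay above, against 20.3% of all loci. At an unadjusted p below 0.05, 3 genes were lower and 0 higher with edgeR, where 5.37% of all loci were lower and 3.92% higher, or 9.3% in either direction. The same 3 genes had a fold change above 1.2 as well, a rule that 4.95% of loci met in the lower and 3.09% in the higher direction. In whole testes, fewer cells of a type and less RNA per cell cannot be told apart. Any transcripts of the 10 genes from other cells of the testis are counted in the same values, and their share was not tested.

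**Figure D2:**
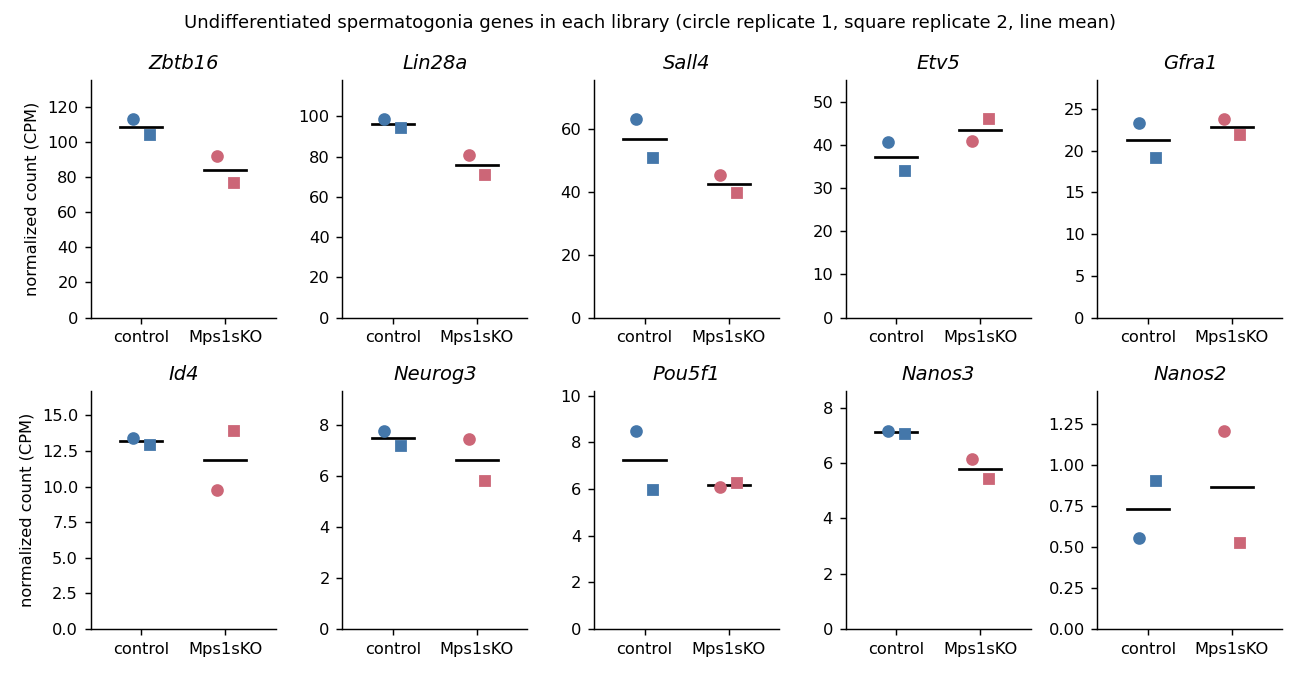
Normalized counts (CPM, axes from 0) of the 10 genes in each library; circles are replicate 1, squares replicate 2 and black lines the mean of 2 libraries. Both Mps1sKO points lie below both control points for *Zbtb16*, *Lin28a*, *Sall4* and *Nanos3*, and above them for *Etv5*.

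The 3 genes with the lowest unadjusted p, *Zbtb16*, *Lin28a* and *Sall4*, are known from most of the undifferentiated population. *Zbtb16*, on chromosome 9 from 48654297 to 48836222, had 113 and 104 CPM in control against 92.0 and 76.8 CPM in Mps1sKO testes. The higher Mps1sKO library was thus below the lower control library, and the mean was 109 ± 6.33 CPM (SD, n = 2) in control and 84.4 ± 10.7 CPM (SD, n = 2) in Mps1sKO testes, or 77.8% of control. Its log2 fold change was −0.36, with a 95% interval from −0.62 to −0.10 (standard error 0.112, unadjusted p = 0.0124, adjusted p = 0.494 from edgeR). *Lin28a*, on chromosome 4 from 134003330 to 134018841, had 98.5 and 94.1 CPM in control and 80.8 and 70.7 CPM in Mps1sKO testes. These groups did not overlap either, with means of 96.3 ± 3.15 and 75.8 ± 7.15 CPM (SD, n = 2 each). The log2 fold change of *Lin28a* was −0.35, from −0.58 to −0.11 (standard error 0.0999, unadjusted p = 0.00914, adjusted p = 0.494 from edgeR).

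*Sall4*, on chromosome 2 from 168748332 to 168767943, encodes a zinc finger factor that works with PLZF in spermatogonia and is needed for their differentiation. It had 63.2 and 50.8 CPM in control and 45.4 and 39.6 CPM in Mps1sKO testes. Its control libraries differed from each other by 0.314 on the log2 scale, more than those of *Zbtb16* (0.119) and *Lin28a* (0.0666), yet both stayed above both Mps1sKO libraries. The mean was 57.0 ± 8.75 CPM (SD, n = 2) in control and 42.5 ± 4.11 CPM (SD, n = 2) in Mps1sKO testes, a log2 fold change of −0.42 from −0.73 to −0.12 (standard error 0.131, unadjusted p = 0.0129, adjusted p = 0.494 from edgeR). Without the filter on low counts, which left 251 loci lower and 139 higher at the threshold, *Sall4* was the only one of the 10 genes with an adjusted p below 0.05, at 0.0346 from edgeR. When 1 library at a time was left out, the log2 fold change lay from −0.50 to −0.24 for *Zbtb16*, from −0.44 to −0.25 for *Lin28a* and from −0.57 to −0.26 for *Sall4*. Without control replicate 1, 1 gene had an unadjusted p below 0.05, namely *Etv5*, which was higher, and none of these 3 did. Without Mps1sKO replicate 2, *Zbtb16* no longer had one (unadjusted p = 0.0609 from edgeR) while *Id4* did (log2 fold change −0.43, unadjusted p = 0.0301 from edgeR).

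The NANOS proteins are RNA-binding repressors of germ cells, NANOS2 in the most primitive spermatogonia and NANOS3 also in progenitors. *Nanos3*, on chromosome 8, had 193 and 203 counts in control against 142 and 145 in Mps1sKO testes, or 7.17 and 7.04 against 6.13 and 5.41 CPM. Its control values were close to each other and both above the Mps1sKO values, and its log2 fold change was −0.30, from −0.68 to 0.08 (adjusted p = 0.602 from edgeR). *Nanos2*, on chromosome 7 from 18987400 to 18988962, had only 15 and 26 counts in control and 28 and 14 counts in Mps1sKO libraries. Its groups overlapped fully, each holding 1 low and 1 high library, and the log2 fold change of 0.22 had an interval from −0.90 to 1.33, so a difference of the size seen for *Sall4* was not detectable at this depth. It was −0.08 without control replicate 1 and −0.48 without Mps1sKO replicate 1. An antisense transcript shares 49.0% of the exon bases of *Nanos2* and had 0 counts in every library. Use of strand in counting is not given, so whether reads from the shared bases were counted for *Nanos2* cannot be told. Its level may thus be understated.

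For the receptor and the target of GDNF among the 10 genes, the mean level was not lower in Mps1sKO testes. *Gfra1*, on chromosome 19 from 58235604 to 58455909, which encodes the GDNF co-receptor, had 23.4 and 19.1 CPM in control and 23.7 and 21.9 CPM in Mps1sKO testes. Its log2 fold change was 0.10, with an interval from −0.21 to 0.41 (edgeR adjusted p = 0.832), and −0.036 without control replicate 2. *Etv5*, on chromosome 16 from 22381309 to 22439719, encodes an ETS transcription factor that GDNF induces in stem cells and FGF induces in Sertoli cells. It had 40.7 and 33.9 CPM in control and 41.0 and 45.9 CPM in Mps1sKO testes. The groups did not overlap, but the higher control library came close to the lower Mps1sKO library, and the log2 fold change was 0.22, from −0.06 to 0.50 (unadjusted p = 0.107, adjusted p = 0.604 from edgeR). Leaving out single libraries gave values from 0.09 to 0.36. A processed copy, *Gm4798*, matches an *Etv5* transcript over 1700 bases at 98.6% identity, and it had 5 to 10 counts a library, against 949 to 1230 for *Etv5*. Whether the log2 fold changes of these genes differ from those of *Zbtb16*, *Lin28a* and *Sall4* was not tested.

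*Id4*, which encodes an inhibitor of basic helix-loop-helix factors and marks stem cells, had 13.4 and 12.9 CPM in control and 9.75 and 13.9 CPM in Mps1sKO testes. The Mps1sKO libraries thus lay on either side of the control libraries, and the log2 fold change, −0.15 with an interval from −0.57 to 0.27 (edgeR adjusted p = 0.819), was 0.080 without Mps1sKO replicate 1. *Pou5f1*, which encodes the pluripotency factor OCT4, had 8.50 and 5.96 CPM in control and 6.09 and 6.27 CPM in Mps1sKO testes. Only control replicate 1 stood above the others. The log2 fold change, −0.23 with an interval from −0.70 to 0.25 (edgeR adjusted p = 0.754), was 0.049 without that library. An antisense transcript shares 14.1% of the *Pou5f1* exon bases and had 0 counts in every library, with the limit given for *Nanos2*.

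*Neurog3*, on chromosome 10 from 62133090 to 62134763, had 7.76 and 7.18 CPM in control and 7.42 and 5.78 CPM in Mps1sKO testes. These groups overlapped, and the log2 fold change was −0.18, from −0.60 to 0.24 (adjusted p = 0.778 from edgeR). It was −0.37 without Mps1sKO replicate 1 and −0.0079 without Mps1sKO replicate 2. On the opposite strand, *Fam241b* shares 273 bases, or 16.3%, of the *Neurog3* exons and had 491 to 784 counts a library against 155 to 209 for *Neurog3*. The sources used here do not say that strand was used in counting, so reads from the shared bases cannot be told apart.

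**Figure D3:**
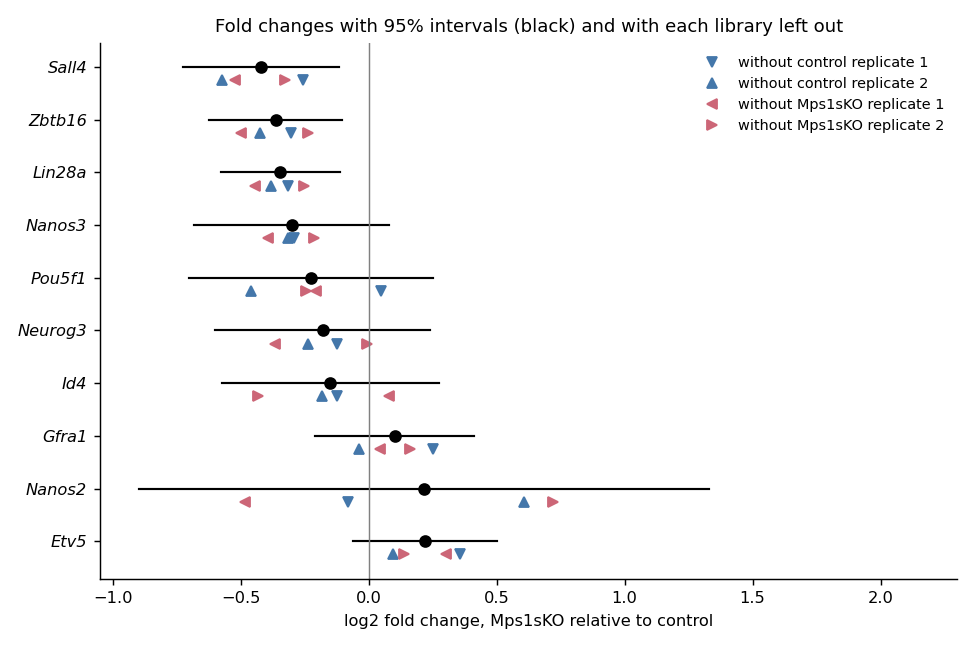
Log2 fold change of the 10 genes in Mps1sKO relative to control testes (black points, with 95% intervals as lines), and the same after leaving out 1 library at a time (coloured triangles below). The intervals of *Sall4*, *Zbtb16* and *Lin28a* lie below 0 before adjustment for the 20561 loci tested, and leaving out a library turns the sign for *Pou5f1*, *Id4*, *Gfra1* and *Nanos2*.

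Of 18 other genes of undifferentiated spermatogonia, all were tested and edgeR called 0 at an adjusted p below 0.05, while 3 were lower and 1 higher at an unadjusted p below 0.05. Their median log2 fold change was −0.08, with 10 lower and 8 higher, and it was 0.000963 without control replicate 1 and 0.01 without Mps1sKO replicate 2. The 3 lower genes were *Lin28b*, the paralog of *Lin28a*, *Upp1*, which encodes uridine phosphorylase, and *Taf4b*, which encodes a germ cell subunit of the TFIID complex. *Lin28b* had the lowest p of the list, with 43.1 and 55.2 CPM in control and 35.4 and 29.6 CPM in Mps1sKO testes and a log2 fold change of −0.60 (unadjusted p = 0.00382, adjusted p = 0.494 from edgeR). That of *Upp1* was −0.71 and that of *Taf4b* −0.32, or −0.44 and −0.20 without Mps1sKO replicate 2. *Shisa6*, a gene of GFRA1-positive spermatogonia, was the higher one, with 16.9 and 12.7 CPM in control and 18.4 and 21.4 CPM in Mps1sKO testes (log2 fold change 0.43, unadjusted p = 0.0336, adjusted p = 0.52 from edgeR, and 0.24 without control replicate 2).

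For the signal that *Gfra1* receives, the ligand *Gdnf* had 21.9 and 13.6 CPM in control and 22.2 and 27.2 CPM in Mps1sKO testes, and its log2 fold change was 0.48 (unadjusted p = 0.0597, adjusted p = 0.551 from edgeR). Without control replicate 1 it was 0.87, and without control replicate 2 it was 0.18. *Ret*, the signalling receptor, had 46.1 and 37.8 CPM in control and 41.9 and 43.8 CPM in Mps1sKO testes, a log2 fold change of 0.03. Among the 13 genes listed for GDNF and FGF signalling, 9 were higher and 4 lower with a median of 0.06 (0.18 without control replicate 1), and edgeR called 0 at an adjusted p below 0.05. The only ones with an unadjusted p below 0.05 were *Dusp6*, a phosphatase induced by ERK signalling (log2 fold change 0.34, unadjusted p = 0.00659), and *Cxcl12*, a chemokine of the somatic niche (0.29, unadjusted p = 0.00996, both from edgeR). *Dusp6*, named here because of its p, had 38.2 and 37.8 CPM in control and 49.2 and 47.0 CPM in Mps1sKO testes (adjusted p = 0.494 from edgeR). Both Mps1sKO libraries thus lay above both control libraries, as they did for 20.3% of all loci.

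Of 17 paralogs of the 10 genes, 14 were tested, with 6 lower, 8 higher and a median log2 fold change of 0.08, which was −0.20 without Mps1sKO replicate 1 and −0.042 without control replicate 2. The adjusted p of edgeR was above 0.05 for all 14. *Zbtb32*, a paralog of *Zbtb16*, had 31.9 and 35.1 CPM in control and 23.6 and 18.3 CPM in Mps1sKO testes (log2 fold change −0.68, unadjusted p = 0.00159, adjusted p = 0.494 from edgeR and 0.0491 from DESeq2). *Nanos1* had 26.4 and 27.7 CPM in control and 21.2 and 17.3 CPM in Mps1sKO testes, more counts than *Nanos2* and *Nanos3* in each library, and a log2 fold change of −0.49 (unadjusted p = 0.00584 from edgeR). The paralogs of *Sall4* lay on either side, *Sall1* at −0.44 (unadjusted p = 0.0137) and *Sall2* at 0.32 (unadjusted p = 0.0154, both from edgeR).

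The other cell types of the testis were compared by lists of their markers. All 14 tested genes of a list of 15 germ cell genes of many stages were lower in both Mps1sKO libraries than in both control libraries, against 21.1% of all loci. For some of them the nearest libraries were almost equal, as for *Dazl* with 466 CPM in control replicate 1 and 463 CPM in Mps1sKO replicate 1. The median log2 fold change of the list was −0.49 (−0.32 without Mps1sKO replicate 2). Its summed level was 1978 and 2411 CPM in control and 1795 and 1379 CPM in Mps1sKO testes. *Ddx4*, which is expressed in all of these germ cells, had 196 and 221 CPM in control and 175 and 139 CPM in Mps1sKO testes, which is −0.41 as log2 fold change (edgeR, adjusted p = 0.494), and that of *Dazl* was −0.40, or −0.25 and −0.18 without Mps1sKO replicate 2. Of the 10 genes listed for differentiating spermatogonia, 8 were lower, with a median of −0.32 and *Stra8* lowest at −0.79, while *Kit* had 102 and 128 CPM in control and 114 and 82.3 CPM in Mps1sKO testes (log2 fold change −0.24, adjusted p = 0.677 from edgeR, and −0.019 without Mps1sKO replicate 2). The Sertoli cell list had the opposite sign, with 12 of 13 tested genes higher, a median of 0.25 and a summed level of 5674 and 6116 CPM in control and 7436 and 6605 CPM in Mps1sKO testes. Its marker *Rhox5* had at most 1 count in a library. The part of these lists in the values of the 10 genes was not tested beyond the ratios given next. Medians were 0.18 for Leydig, −0.12 for peritubular myoid, −0.13 for macrophage, 0.10 for endothelial and 0.08 for red blood cell genes, of which the last 3 changed sign without 1 of the Mps1sKO libraries, and in none of the lists did edgeR call a gene at an adjusted p below 0.05. At an unadjusted p below 0.05 edgeR had 13 germ cell and 6 differentiating genes lower and 4 Sertoli cell genes and 1 differentiating gene, *Ccnd2* (log2 fold change 0.30), higher, and DESeq2 called *Stra8* and the germ cell genes *Mael*, *Ddx25*, *Tex101* and *Taf7l*, all lower, at an adjusted p below 0.05. Of 5 adipocyte genes only 3 were tested, and *Fabp4* and *Car3* were highest in control replicate 2, at 4.47 and 4.06 CPM against at most 1.04 and 0.52 CPM in the other libraries. The third of them, *Plin1*, was lowest in that library, with 18.8 and 11.9 CPM in control and 22.2 and 24.0 CPM in Mps1sKO testes (log2 fold change 0.59, unadjusted p = 0.0197 from edgeR).

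**Figure D4:**
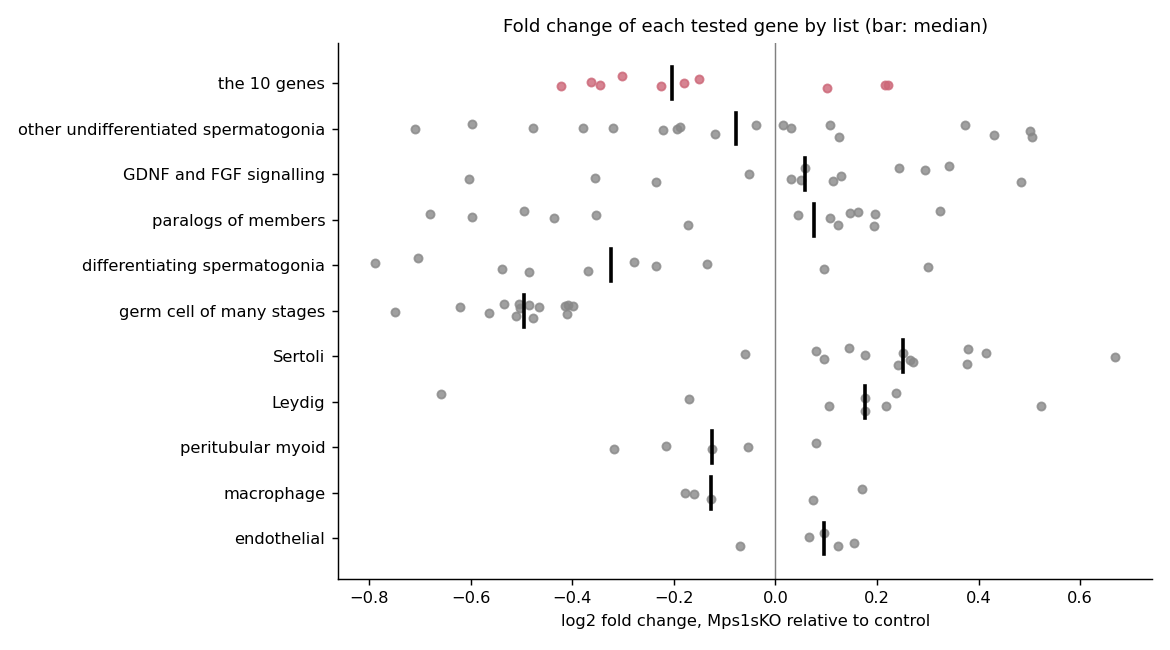
Log2 fold change of each tested gene in Mps1sKO relative to control testes, by list; black bars are medians and the 10 genes are in red. The median of the 10 genes (−0.20) lies between those of the germ cell list (−0.49) and the Sertoli cell list (0.25).

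Set against *Ddx4* in the same library, the 3 genes that were lower at an unadjusted p below 0.05 overlapped between genotypes. *Zbtb16* was at 57.7% and 47.1% of the *Ddx4* level in control and at 52.6% and 55.4% in Mps1sKO testes, values that overlapped. *Lin28a* was at 50.3% and 42.6% in control and 46.2% and 51.0% in Mps1sKO testes, and *Sall4* at 32.3% and 23.0% against 26.0% and 28.6%. The Mps1sKO values of *Sall4* thus lay between the control values. For *Gfra1* the ratio was 11.9% and 8.67% in control and 13.6% and 15.8% in Mps1sKO testes, and for *Etv5* it was 20.8% and 15.4% against 23.4% and 33.1%. These and *Neurog3* were the 3 genes for which both Mps1sKO ratios lay above both control ratios, as they did for 63.3% of all loci, and for 0 of the 10 genes both lay below (2.32% of all loci). The exact two-sided permutation p was 0.333 for each of the 3, the smallest that 2 libraries against 2 allow. The median log2 change of the ratio over the 10 genes was 0.22, which was 0.05 without control replicate 2 and 0.030 without Mps1sKO replicate 2. Against the summed germ cell list, both Mps1sKO ratios lay above for 4 of the 10 genes, *Nanos2* in addition (62.8% of all loci), and below for 0 (1.68%). For *Nanos2* the nearest libraries were almost equal, at 0.0374% in control replicate 2 and 0.0379% in Mps1sKO replicate 2. Against the summed Sertoli cell list, both Mps1sKO ratios lay below both control ratios for 7 of the 10 genes, where 53.5% of all loci did so, and above for 0 (2.04%), and *Gfra1*, *Etv5* and *Nanos2* were the genes that overlapped; for *Id4* the nearest libraries were almost equal. *Sall4* had the largest of these differences, at −0.67 on the log2 scale, and *Etv5* the smallest, at −0.03. *Clu*, which encodes a secreted chaperone, made up 50.3% to 59.2% of the summed level. Without it, a reference added after the data were seen, the ratios lay below for 7 genes (57.2% of all loci) and above for 0 (2.79%), with the same 3 genes overlapping.

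**Figure D5:**
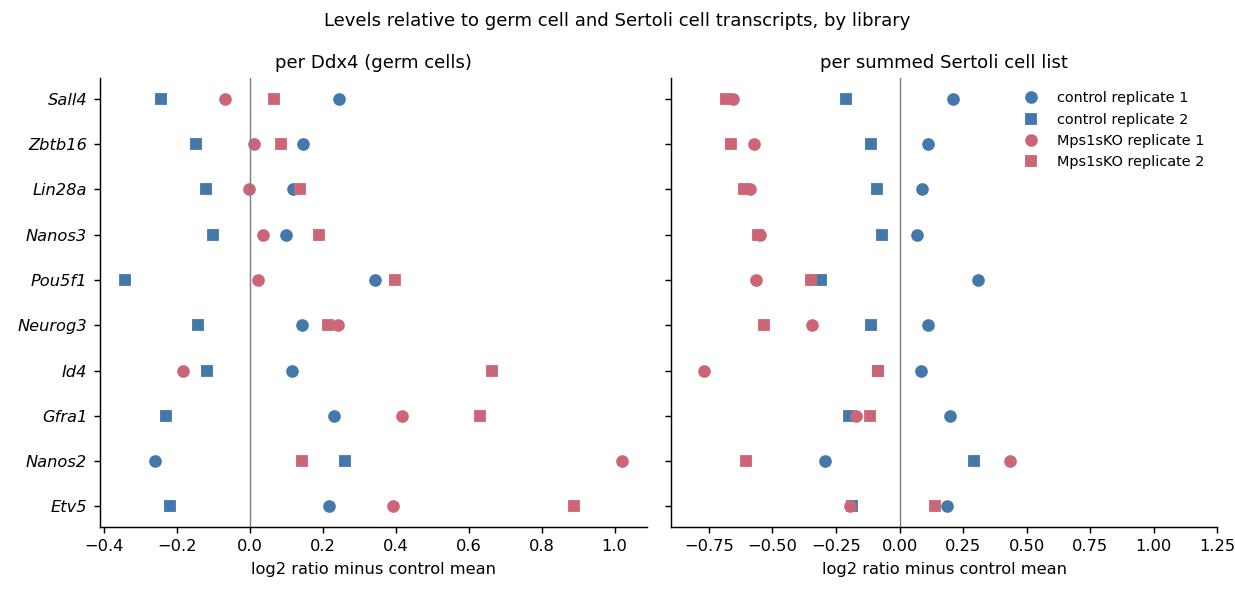
Log2 ratio of the 10 genes to *Ddx4* (left) and to the summed Sertoli cell list (right) in each library, minus the mean of the control libraries; blue marks control and red Mps1sKO, circles replicate 1 and squares replicate 2. Left, the red points of *Sall4*, *Zbtb16* and *Lin28a* overlap the blue ones and those of *Gfra1* and *Etv5* above them; right, 7 genes have both red points below both blue ones.

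Of the 111 genes of all lists that were tested, those whose profile over the 4 libraries was nearest to the mean profile of the 10 genes were *Gfra2*, *Pax7* and *Acta2*, with a root mean square distance of 0.0236, 0.0252 and 0.0458 on the log2 scale. The mean profile itself was, from high to low, control replicate 1 (0.13), control replicate 2 (0.02), Mps1sKO replicate 1 (0.01) and Mps1sKO replicate 2 (−0.16). The spread within a genotype was thus larger than the step between the nearest libraries of different genotype. All 10 genes have equal weight in this profile, also *Nanos2* with 14 to 28 counts, whose Mps1sKO libraries differed by 1.10 on the log2 scale. How far the profile and the nearest genes rest on *Nanos2* was not tested. *Pax7* had only 27 to 36 counts.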

How the data were processed

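RNA-seq counts of whole testes at P10 were available for 4 libraries, grouped by the titles in their labels into control and Mps1sKO (n = 2 each). Per the labels, libraries were made with an NEBNext Ultra kit from 1 μg of RNA and read as 150 bp pairs, and the submitters' processing notes name HISAT2 2.0.5, featureCounts, DESeq2 1.16.1 and mm10. The annotation version and the use of strand in counting are not given in the sources used here. The coordinates of all 10 genes equalled GENCODE M21. The authors deposited raw counts per gene and FPKM values, for which they divided by gene length and library size.

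Counts were compared by edgeR version 4.0.16 under R 4.3.3 (filterByExpr, TMM, estimateDisp, quasi-likelihood F test on genotype), and the standard error is the log2 fold change divided by the square root of F. FPKM values were used only to order the genes by level. The common biological coefficient of variation was 0.106. The spread between libraries of the same genotype exceeded counting error (chi-square per degree of freedom 8.49 in control and 11.6 in Mps1sKO). Alternatives were DESeq2 1.42.0, limma-voom 3.58.1, other scalings and filters, a robust dispersion, annotated genes only, the replicate number as a block, and each library left out in turn. The fits were tested on simulated data whose changes were larger than those of the 10 genes. That run does not tell how well changes of the size seen here are found. Near-identical copies were sought with BLAST 2.17.0 among GENCODE M21 transcripts (at least 150 bases at 95% identity). The genes and lists were chosen with earlier results of these data known. The text names the 10 genes, genes with an unadjusted p below 0.05 from 3 lists (other undifferentiated spermatogonia, GDNF and FGF signalling, paralogs), and a few chosen by name whatever their values (*Ret*, *Gdnf*, *Lin28b*, *Kit*, *Stra8*, *Ddx4*, *Dazl* and *Ttk*). List genes outside that rule (*Rhox5*, *Fabp4*, *Car3*, *Plin1*, *Ccnd2*, *Clu* and germ cell genes called by DESeq2) and overlapping genes or copies were named after their values were seen.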

Additional observations from a re-analysis of the deposited data

How the results depend on the processing

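The replicate numbers are not stated to pair the libraries, and the deviations of same-numbered libraries correlated at −0.19; with the replicate block, edgeR called 2 loci lower and none of the 10 genes. With the numbers crossed, a pairing added after the data were seen, it called 304 loci lower and 246 higher, and 1 of the 10 genes. The number of loci lower at an adjusted p below 0.05 was 6 with edgeR, 30 with DESeq2 (7 higher), 3 with limma-voom, 3 with at least 10 counts in every library, 3 with annotated genes only, and 251 (139 higher) without the filter on low counts, where 1 of the 10 genes, *Sall4*, was called. With a library left out, a fit that assumes the lone library of a group to vary like the others, 11 to 126 loci were lower and 6 to 73 higher, none of the 10 genes was called, and 1 to 4 of them had an unadjusted p below 0.05. The median log2 fold change of the 10 genes then lay from −0.38 (without Mps1sKO replicate 1) to −0.12, and it lay from −0.22 to −0.20 under the other alternatives. The median log2 change relative to *Ddx4* lay from 0.030 to 0.34 with a library left out, and was 0.28 relative to the germ cell list. The sign turned for *Gfra1* (−0.036 without control replicate 2), *Id4* (0.080 without Mps1sKO replicate 1), *Nanos2* (−0.08 and −0.48 without control replicate 1 or Mps1sKO replicate 1; 0.72 at the other end) and *Pou5f1* (0.049 without control replicate 1), and for the median of all loci, −0.021 with library size only. The range with a library left out was 0.25 at the upper end for *Gfra1*, −0.43 at the lower for *Id4* and −0.46 for *Pou5f1*. No direction of the 10 genes turned under another scaling. The causes were not tested.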
